A study of Mus musculus with 12 samples.

Results

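The 42 genes described here code for the proteins of complement, coagulation and fibrinolysis and for their inhibitors. They were taken by gene symbol from the read count table of mouse liver, by a rule that names genes and uses no measured value, and all 42 were found among its 54838 gene identifiers. The RNA came from 12 female C57BL/6J mice of 8 to 14 weeks of age, in 4 groups of 3 mice. For 7 days the drinking water was plain or held ZnSO4 at 25 mM. An injection of PBS, or of dexamethasone (Dex) at 200 µg in PBS, followed, and the liver was taken 2 hours later. Dex is a drug that activates the glucocorticoid receptor. The groups are called water-PBS (the control), zinc-PBS, water-Dex and zinc-Dex. Every group therefore carried an injection, and no group was left uninjected. Nothing in the labels ties a mouse of one group to a mouse of another.

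Complement and coagulation are cascades of proteases that circulate as inactive precursors, most of them made by hepatocytes, the main cell type of the liver. In complement, C1q or a mannose-binding lectin starts a chain that cleaves C4, C2 and C3 and ends with C5 to C9, which assemble into a pore in the target membrane. In coagulation, tissue factor outside the blood stream or the contact system inside it leads through factor X to thrombin, which cuts fibrinogen into fibrin, and plasmin later dissolves the clot. Serpins and other inhibitors hold each step in check.

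A sequence is shown for the member that moved most with Dex, F3 (tissue factor, the membrane receptor that starts coagulation when it binds factor VII), and for C1ra (the protease C1r of the C1 complex), whose upstream region carries a letter pattern that was more frequent among the members. Each line holds the 250 bases before the RefSeq start of the gene in GRCm38.p6, read 5′ to 3′ on the strand of the gene. Capitals in F3 mark the letters TGANTCA, the AP-1 motif, and GGGCGG, the Sp1 box, on either strand, and capitals in C1ra mark GTTAAT, the half-site of the hepatocyte factor HNF1.
F3 chr3:121723287-121723536, plus strand: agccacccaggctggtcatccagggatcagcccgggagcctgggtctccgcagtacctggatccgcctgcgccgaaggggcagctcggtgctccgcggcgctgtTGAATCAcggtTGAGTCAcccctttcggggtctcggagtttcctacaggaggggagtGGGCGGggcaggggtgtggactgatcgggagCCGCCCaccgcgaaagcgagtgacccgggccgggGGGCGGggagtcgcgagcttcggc
C1ra chr6:124512371-124512620, plus strand: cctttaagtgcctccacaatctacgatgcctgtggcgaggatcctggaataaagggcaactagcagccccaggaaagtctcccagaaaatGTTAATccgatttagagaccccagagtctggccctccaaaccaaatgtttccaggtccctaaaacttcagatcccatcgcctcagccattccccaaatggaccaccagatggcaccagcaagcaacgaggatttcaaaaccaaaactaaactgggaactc

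RefSeq promoter sequences, from 250 bases before to 50 bases after the start, matched 32 of the 42 members and gave 35 windows. Each motif was searched on both strands. The HNF1 half-site GTTAAT was in 22.9% of the members' windows (C1ra, C4bp, C8a, C8b, Cfp, F13b, F2 and Hc) and in 7.1% of all 32851 windows. The letters TTNNGCAA of C/EBP, a family of hepatocyte and acute phase factors, were in 25.7% of the members' windows and in 10.8% of all. The core of the glucocorticoid receptor motif, ACANNNTGT, was in 11.4% and 6.85%, and the members that held it were C1qc, C9, F11 and Serpinf2. The HNF4 letters CAAAGTCCA were in 0% and 0.475%, the STAT letters TTCCNGGAA in 2.86% (Pros1) and 1.15%, and the metal response element core, TGCGCNC or TGCACNC, in 14.3% and 25.7%. The last pair of motifs was added after the values of F3 were seen. TGANTCA was in 8.57% of the members' windows and 7.81% of all, and GGGCGG in 20% and 35.7%. These shares describe letters in short windows, and a match is not a binding site.

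The members together took 3.08% ± 0.0640 (SD, n = 3) of all counts in water-PBS. The total count per library lay between 9091152 and 12303527, so the counting error of most members was small, and F3, Cfb and Cfd were the 3 at the lowest levels per length. Levels between genes are compared per transcript length, as TPM, the share of all transcripts of a library corrected for their length. In water-PBS the highest level was that of C3 (4800 TPM), the central protein of complement, followed by Kng1 (1927 TPM), the kininogen of the contact system, Mbl2 (1478 TPM), a mannose-binding lectin, and Plg (1417 TPM), the precursor of plasmin. The lowest levels were those of C2 (16.3 TPM), which C1s cleaves to form the C3 convertase, Tfpi (7.05 TPM), the inhibitor of the tissue factor pathway, Cfb (6.09 TPM), the protease of the alternative pathway, and F3 (4.58 TPM). Cfd, the factor D that cleaves factor B and that adipose tissue is known to make, had 0 counts in 8 libraries and 1 count in each of the other 4, and no fold is given for it. The remaining members lay between 46.8 TPM (Pros1) and 974 TPM (Serpinf2) in water-PBS. C2 and Cfb share exons with another gene, and how such reads were counted is not stated, so their levels may be too low.

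**Figure D1:**
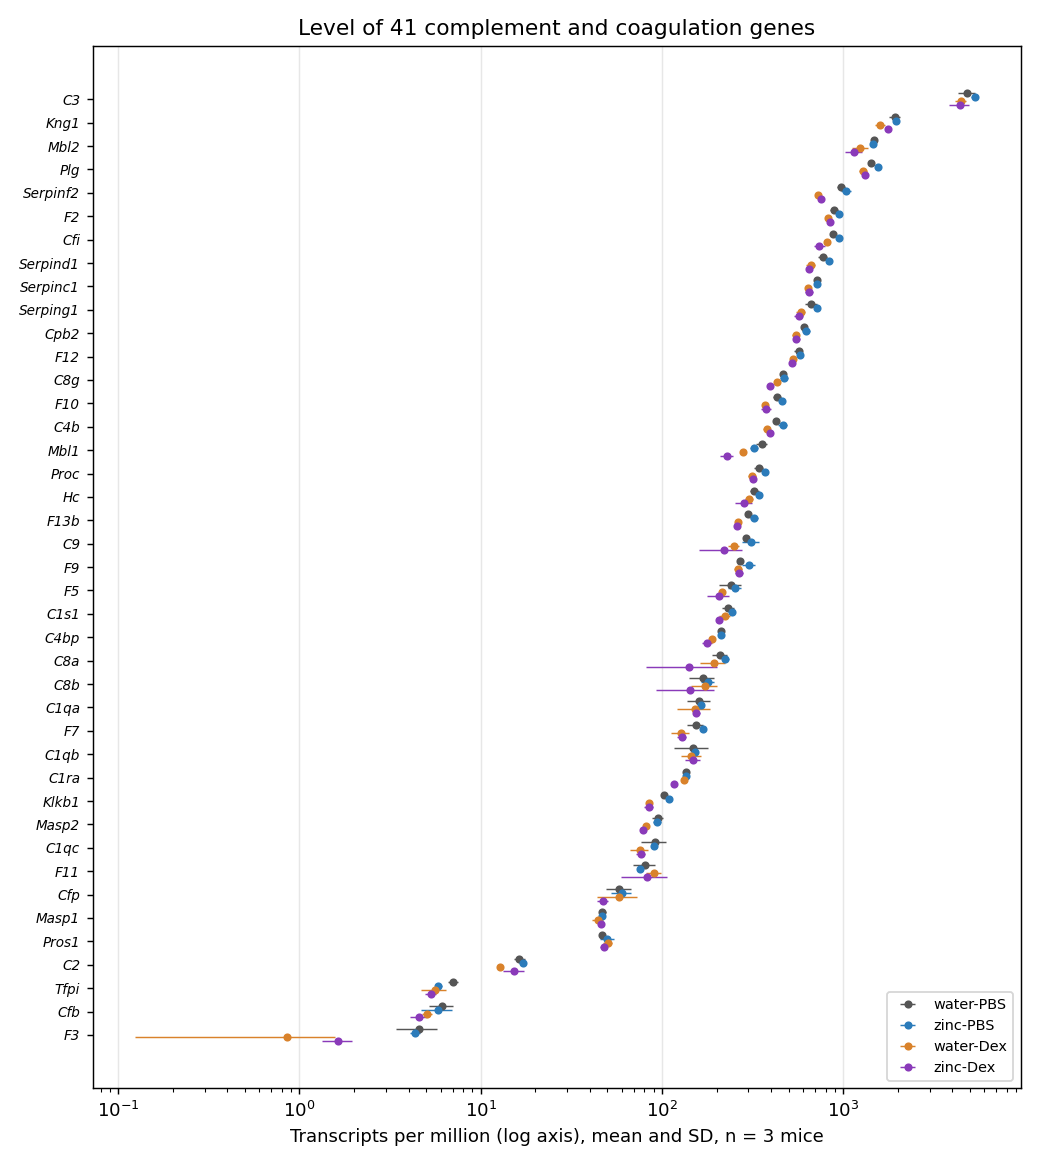
Mean level and SD of 41 members in each of the 4 groups (n = 3 mice), in TPM on a log axis, ordered by the level in water-PBS (Cfd, near 0, is left out). The levels run from 4800 TPM for C3 to 4.58 TPM for F3, and most genes have their 4 groups close together; TPM shares the total of each library, so a Dex group can sit lower for many genes at once.

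The samples had the marks of liver. Summed normalized counts of 7 hepatocyte genes found in the table (Alb, Ttr, Apoa1 and others) were 1250000 to 1445000 in water-PBS, 1325000 to 1462000 in zinc-PBS, 1608000 to 1721000 in water-Dex and 1700000 to 1784000 in zinc-Dex. Of these genes, 2 of 7 passed the test as higher in water-Dex against water-PBS and 6 of 7 in zinc-Dex against zinc-PBS. The shares of all genes were 11.7% and 11%. The summed Kupffer cell genes, the macrophages of the liver and a known source of C1q, were 4916 to 6771 in water-PBS and 5196 to 6371 over the other 9 libraries, and 0 of 8 passed in any comparison. The pancreatic genes Prss2, Cpa1 and Pnlip and the adipocyte gene Lep were at 0 in every library, and the adipocyte gene Adipoq had at most about 1 count. Other genes listed for these tissues were not silent. Cela1, listed for the pancreas, had 61.9 to 134 normalized counts. Of those listed for adipocytes, Car3 had 15409.3 to 24223.6 and Cidec 8.19 to 26.7. The source of these counts was not tested. In tissue of many cells, fewer cells of a type and less RNA per cell cannot be told apart. Libraries of the same group differed by 6.20 to 20.7 times counting noise (chi-square per degree of freedom), so none was a copy, and the highest value was that between zinc-Dex replicates 1 and 2. Zinc-PBS replicate 1 stood apart in inflammatory genes, for example 3021 normalized counts of the chemokine Cxcl1 against 50.7 and 163 in the other mice of its group.

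Zinc by itself was compared with plain water in PBS-injected mice. None of the 41 members with an adjusted p passed the test in either direction, where passing means an adjusted p under 0.05 (DESeq2, Benjamini-Hochberg over all genes tested). Of all 12307 genes tested, 0.211% passed as higher and 0.13% as lower. At an unadjusted p under 0.05 there were 2 members by DESeq2, C4b (a source of the C3 convertase) and Plg, against 5.74% of all genes. edgeR passed 0 members and 0.0835% of all genes. The median log2 fold change was 0.06 over the members and 0.00 over all genes. The 2 groups did not overlap for 6 members that were higher in zinc-PBS (C4b, Serping1, F13b, Klkb1, Serpind1 and Plg) and for 1 that was lower (Tfpi), against 5.86% and 6.01% of all genes.

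Plg had 21349, 22767 and 21428 normalized counts in the 3 water-PBS mice and 24651, 23754 and 23706.5 in the 3 zinc-PBS mice. The zinc-PBS mice were all higher, by a log2 fold change of 0.14 ± 0.06 (SE), with an adjusted p of 0.697 (DESeq2). Tfpi had 171, 152 and 157 normalized counts in water-PBS and 138, 131 and 128 in zinc-PBS. That difference was -0.27 on the log2 scale and did not pass either. For 37 of the 41 members the 95% interval of the zinc effect lay within 0.5 on the log2 scale of no change, and the exceptions were C8a, C8b, F3 and Tfpi. The zinc-PBS mouse with the inflammatory genes had 43.3 normalized counts of F3, against 43.7 and 48.9 in its group. It had 83.9 of Cfb, an acute phase gene, against 62.9 and 57.9. The water-PBS mice had 72.5, 82.8 and 59.3 of Cfb, so this value was close to that of a control mouse.

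Dex was compared with PBS in mice on plain water and, separately, in mice on zinc. In plain water, 1 of 41 members passed as higher (Pros1) and 2 as lower (F3 and Serpinf2), while 11.7% of the 14221 genes tested passed as higher and 9.91% as lower. In mice on zinc, 1 passed as higher (Masp1) and 3 as lower (F3, Mbl1 and Serpinf2), while 11% and 9.08% of all genes did. Zinc-Dex against the water-PBS control gave 2 higher (Masp1 and Pros1) and 2 lower (F3 and Mbl1), against 8.13% and 6.7% of all genes. That last comparison shares its mice with the other 2, so the 3 are not independent of each other. F3 was the only member that also had an absolute log2 fold change above 0.8 in these 3 comparisons, where the share of all genes that passed as lower with that fold was 4.79% in plain water, 4.68% in mice on zinc and 3.55% against the control.

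**Figure D2:**
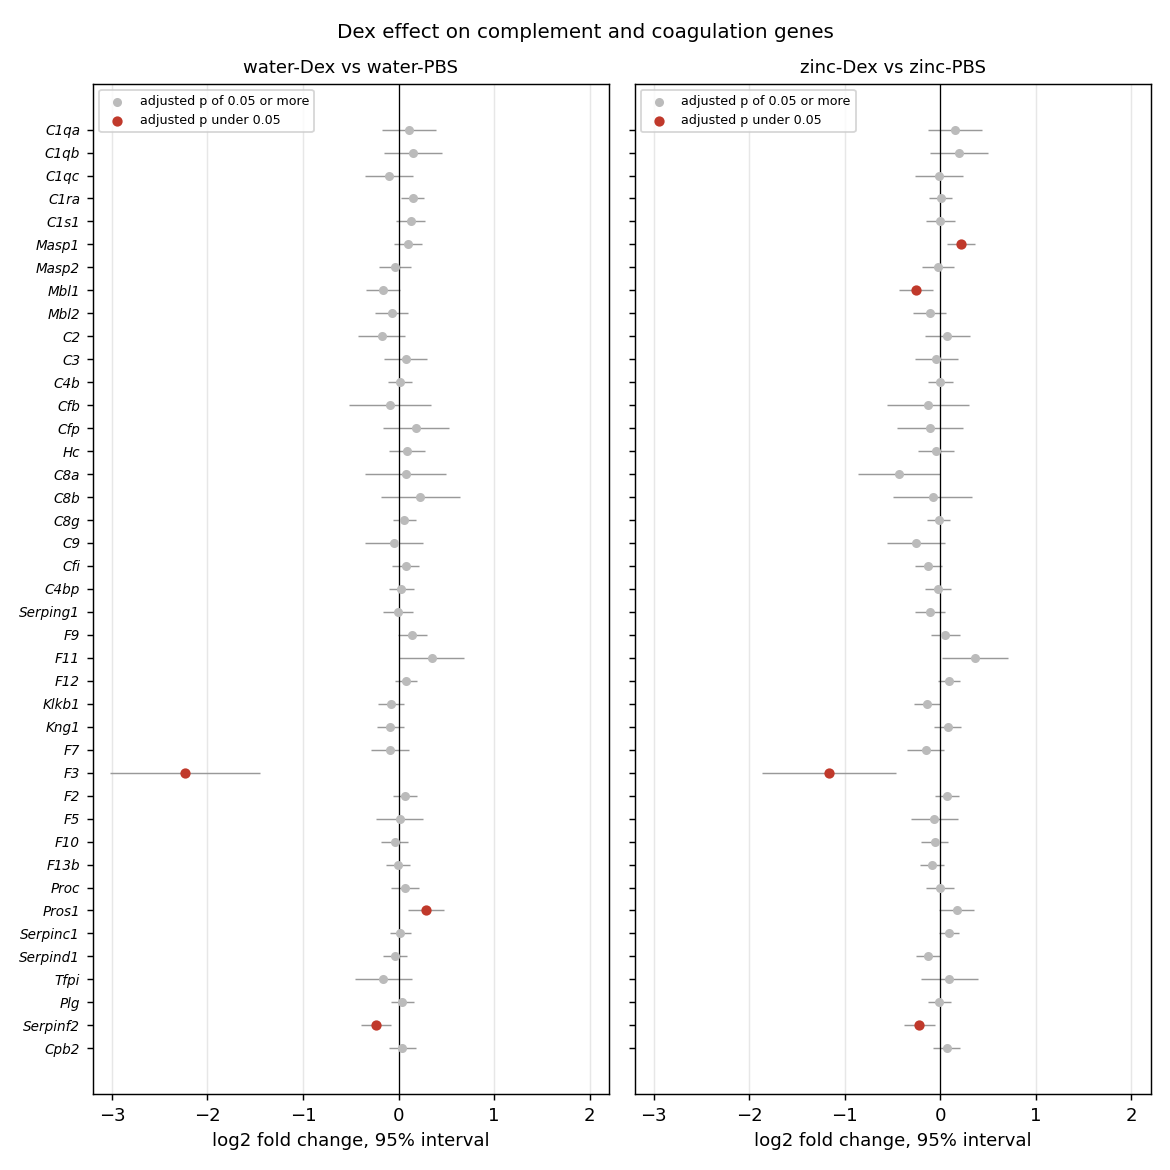
Log2 fold change of Dex over PBS with its 95% interval for 41 members, ordered by role, in mice on plain water (left) and on zinc (right), from DESeq2 with n = 3 mice a group. Red points passed at an adjusted p under 0.05; F3 stands at -2.23 and -1.17, and nearly all other points lie close to the line of no change.

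F3 had 37.8, 45.5 and 60.4 normalized counts in the water-PBS mice and 43.3, 43.7 and 48.9 in the zinc-PBS mice. With Dex it had 5.08, 5.32 and 19.8 in plain water and 18.5, 17.8 and 24.0 on zinc. All 6 Dex-injected mice were lower than all 6 PBS-injected mice. In plain water the level fell to 0.213 times the control, a log2 fold change of -2.23 ± 0.40 (SE) with an adjusted p of 5.2e-07 (DESeq2). In mice on zinc the log2 fold change was -1.17 ± 0.36 with an adjusted p of 0.00799. That second call had an adjusted p of 0.0529 once zinc-PBS replicate 3 was left out. Tissue factor had the lowest level of the members apart from Cfd, so its counts are the least precise.

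The F3 level in zinc-Dex was above 2 of the 3 water-Dex mice and overlapped the third. The log2 difference between zinc-Dex and water-Dex was 0.99 ± 0.43 with an adjusted p of 0.345 (DESeq2), and that of the interaction, the difference between the Dex effect on zinc and the Dex effect in plain water, was 1.07 ± 0.54 with an adjusted p of 1. Without water-Dex replicate 3, the mouse at 19.8, the difference was 1.96 with an adjusted p of 0.0602. Without water-Dex replicate 1 it was 0.67.

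In the start of the lectin pathway, Mbl1 codes for a mannose-binding lectin and Masp1 for a protease that is carried by it. Mbl1 had 2455, 2387 and 2102 normalized counts in water-PBS, 1998, 2145 and 2131 in zinc-PBS, 2080.3, 2156 and 1967 in water-Dex. It had 1643, 1942 and 1678 in zinc-Dex. The 3 zinc-Dex mice were lower than every mouse of the other groups. Mbl1 was lower in zinc-Dex than in water-PBS by a log2 fold change of -0.40 ± 0.09 (adjusted p = 0.000186, DESeq2) and lower than in zinc-PBS by -0.25 ± 0.09 (adjusted p = 0.0307). In plain water the Dex effect was -0.16 and did not pass.

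Masp1 had 1904, 2031 and 1821 normalized counts in water-PBS, 1998, 1829 and 1890.3 in zinc-PBS, 2152, 1923 and 2081 in water-Dex. It had 2178, 2234 and 2242 in zinc-Dex. The zinc-Dex mice were above all others, by small steps. The log2 fold change was 0.21 against water-PBS (adjusted p = 0.0362, DESeq2) and 0.22 against zinc-PBS (adjusted p = 0.0193). With total-count scaling both turned to the other direction, at -0.03 and -0.01. Mbl2 and Masp2, the other lectin and protease of this step, did not pass, with log2 fold changes between -0.13 and -0.02 in the 3 Dex comparisons with PBS groups.

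Serpinf2 codes for α2-antiplasmin, the main inhibitor of plasmin. It had 8876, 9763 and 9555 normalized counts in water-PBS, 10459.7, 9022 and 10419 in zinc-PBS, 8050.1, 8396 and 7504 in water-Dex. It had 8256, 8958 and 8461 in zinc-Dex. Each Dex group was below the PBS group with the same water. The log2 fold change of Dex was -0.24 ± 0.08 in plain water (adjusted p = 0.0225, DESeq2) and -0.22 ± 0.08 with zinc (adjusted p = 0.0382). Plg, whose product it inhibits, moved by 0.04 and -0.01 and did not pass, nor did Cpb2, which protects fibrin from plasmin, at 0.04 and 0.07.

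Pros1 codes for protein S, the cofactor of the anticoagulant protein C. It had 768, 819 and 796 normalized counts in water-PBS, 879, 893 and 768 in zinc-PBS, 946, 1048 and 917 in water-Dex. It had 959, 1012 and 891 in zinc-Dex. Both Dex groups were above water-PBS, and zinc-Dex overlapped zinc-PBS through 1 mouse. The log2 fold change was 0.29 ± 0.09 in plain water (adjusted p = 0.0141, DESeq2) and 0.26 ± 0.09 for zinc-Dex against water-PBS (adjusted p = 0.0382). Proc, protein C itself, moved by 0.07 with Dex in plain water, and Serpinc1, antithrombin, by 0.02.

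**Figure D3:**
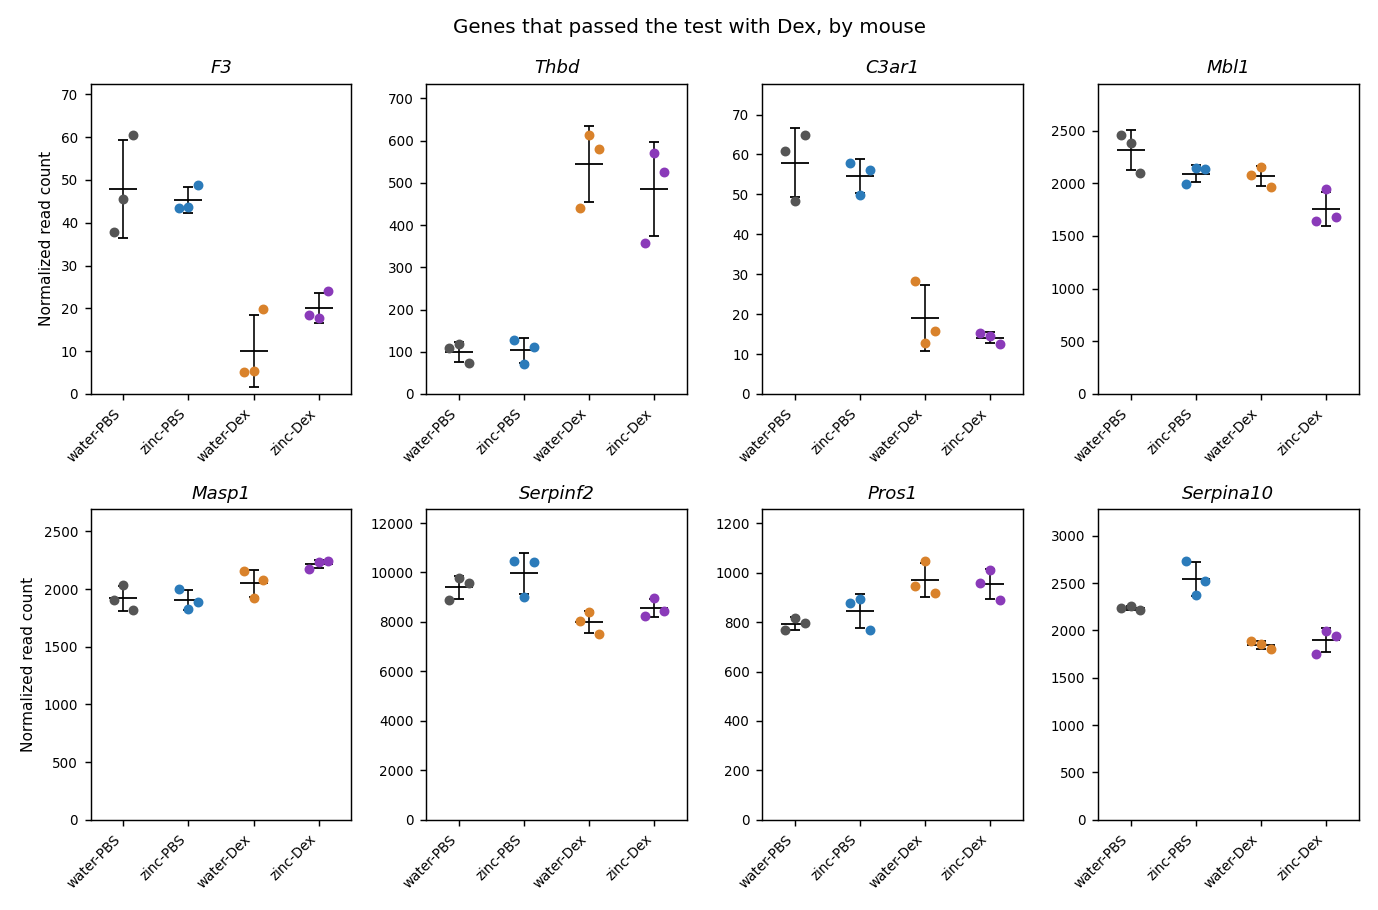
Normalized read count in each of the 12 mice for the 5 members that passed a test with Dex and for Thbd, C3ar1 and Serpina10 of the same pathways, with the mean and SD of each group of 3; every axis starts at 0. F3 and C3ar1 are lower and Thbd higher in all 6 Dex-injected mice, while Mbl1, Masp1, Serpinf2 and Pros1 move by a small part of their level.

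Most calls on these 4 small changes were lost in some settings, and that on Mbl1 for zinc-Dex against the control was lost in none. Of 14 alternative settings, F3 was called in 14, 14 and 13 for plain water, zinc-Dex against the control and mice on zinc. Mbl1 was called in 14 for zinc-Dex against the control and in 7 for mice on zinc. Pros1 was called in 10 for plain water and 7 for zinc-Dex against the control, Serpinf2 in 8 and 6 for plain water and mice on zinc, and Masp1 in 6 and 6 for zinc-Dex against the control and mice on zinc. Leaving out 1 library often lost the smaller calls (adjusted p by DESeq2). Pros1 was lost in plain water without water-PBS replicates 1 or 3 or water-Dex replicate 2 (adjusted p of 0.0517 to 0.141), and against the control without any water-PBS mouse or zinc-Dex replicates 1 or 2 (0.0575 to 0.133). Serpinf2 was lost in plain water without water-PBS replicates 2 or 3 or water-Dex replicates 1 or 3 (0.0757 to 0.164), and on zinc without replicates 1 or 3 of either group (0.133 to 0.19). Masp1 was lost against the control without water-PBS replicates 1 or 3 or any zinc-Dex mouse (0.0561 to 0.145), and on zinc without zinc-PBS replicates 2 or 3 or any zinc-Dex mouse (0.0505 to 0.139). Mbl1 was lost on zinc without zinc-PBS replicates 2 or 3 or zinc-Dex replicates 1 or 3 (0.123 to 0.165).

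The other 36 members with a level did not pass in any comparison, and most were estimated closely. The median SE of a log2 fold change over the members was 0.0818 for Dex in plain water, and the 95% interval lay within 0.5 on the log2 scale of no change for 35 of 41 members there and for 36 of 41 in mice on zinc. C3 had 92111 to 116416 normalized counts in water-PBS, with a median of 99356, and 102205 to 116877 in water-Dex, with a median of 105350.0. The 2 ranges lay over each other. F2, prothrombin, had 16359, 18174 and 16387 in water-PBS and 18382, 18128 and 16899 in water-Dex, which overlap too. Of the 31 members whose normalized counts averaged 1000 or more, 28 (90.3%) had a highest library less than 1.5 times the lowest over all 12 mice, against 59% of the 1530 genes at that level.

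Among those 1530 genes, 31.3% passed for Dex in plain water, and 1 of the 31 members did. For zinc-Dex against water-PBS the values were 35.6% and 2 of 31, and for Dex in mice on zinc 33.6% and 3 of 31. This comparison at matched level was added after the counts of members had been seen. The median log2 fold change of the members was 0.03, 0.02 and -0.02 in plain water, zinc-Dex against the control and mice on zinc, and that of all genes tested was -0.01, 0.00 and -0.01.

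Groups that did not overlap were counted as well. In plain water 5 of 41 members were higher in every Dex mouse (C1ra, F9, F11, F12 and Pros1) and 4 lower (C2, Klkb1, Serpinf2 and F3), against 19.8% and 19.2% of all genes. In mice on zinc the numbers were 6 and 5 of 41, against 19.5% and 18.6%, and for zinc-Dex against the control 8 and 3 of 42, against 14.9% and 14.6%. At an unadjusted p under 0.05, DESeq2 gave 5, 8 and 9 members in these comparisons, in the order plain water, mice on zinc and against the control, where 30.9%, 29.2% and 23.4% of all genes were under that p. edgeR passed 3, 3 and 4 of 41 members, and 26.4%, 27.2% and 30.2% of all genes.

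The contact system and intrinsic pathway hold F12, Klkb1 (prekallikrein), Kng1, F11 and F9, and 0 of these 5 passed for Dex. Of all genes 11.7% passed as higher and 9.91% as lower in plain water, and 11% and 9.08% on zinc. With 5 genes, a count of 0 says little about this role. F11, the factor that activates factor IX, had the largest estimate of the 5. It had 725, 872 and 649 normalized counts in water-PBS and 901, 1074 and 881 in water-Dex. The water-Dex mice were all higher, but the log2 fold change of 0.35 ± 0.18 had an adjusted p of 0.159 (DESeq2). In mice on zinc F11 had 734, 680.1 and 703 normalized counts with PBS and 761, 1220 and 743 with Dex, a log2 fold change of 0.36 with an adjusted p of 0.142. In the extrinsic pathway F7, the partner of tissue factor, moved by -0.09 in plain water and by -0.15 on zinc and did not pass. The common pathway genes F10, F5, F2 and F13b moved by -0.04, 0.01, 0.07 and 0.00 in plain water.

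The start of the classical pathway, C1qa, C1qb, C1qc, C1ra and C1s1, had 0 of 5 members past the test for Dex. The shares of all genes are those given for the contact system, and 5 genes are again too few to describe a role. C1ra had 1663, 1683 and 1719.8 normalized counts in water-PBS and 1947, 1862 and 1799 in water-Dex, all higher, with a log2 fold change of 0.15 and an adjusted p of 0.0817 (DESeq2). The 3 C1q genes were lowest in the same mouse, water-PBS replicate 3, at 566, 494 and 594 normalized counts for C1qa, C1qb and C1qc, against 735 to 845 in the other mice of the group. The Kupffer cell sum was also lowest there, at 4916, and its part in the C1q levels was not tested. C2, C4b, C3, Cfb and Cfp, of the C3 convertases and the alternative pathway, did not pass, nor did the inhibitors Cfi, C4bp and Serping1, whose log2 fold changes in plain water were 0.08, 0.03 and -0.01.

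Scaling mattered for the whole group. The fold changes above are relative to DESeq2 size factors, which hold the middle of all genes in place. The members' share of all counts was 3.08% ± 0.0640 in water-PBS, 3.25% ± 0.0562 in zinc-PBS, 2.75% ± 0.119 in water-Dex and 2.74% ± 0.201 in zinc-Dex (SD, n = 3 each). The Dex groups did not overlap the PBS groups (exact permutation test, two-sided, p = 0.1, the smallest that 3 against 3 allows). Zinc-PBS lay above water-PBS with the same exact p of 0.1, and zinc-Dex overlapped water-Dex (exact permutation p = 1). When libraries were scaled by their total count, an alternative added after seeing the data, the median of all genes moved by -0.20 in plain water, -0.23 in mice on zinc and -0.24 against the control. Under it 17 of 41, 22 of 41 and 18 of 41 members passed as lower and 0 as higher. Of all genes 23.1%, 25.1% and 28.8% passed as lower, and 7.07%, 6.43% and 7.03% as higher. The hepatocyte gene sum, most of it Alb, was higher in the Dex groups, and its part in this shift was not tested.

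Zinc was also compared with plain water in the Dex-injected mice. Of the 41 members 0 passed as higher and 0 as lower (DESeq2), against 0.915% and 0.438% of 12786 genes. At an unadjusted p under 0.05 there were 5 members by DESeq2 (C1ra, C2, Mbl1, Kng1 and F3), against 10.2% of all genes, which is close to the members' share. edgeR passed 0 members and 0.357% of all genes. Groups did not overlap for 5 members that were higher (C2, C4b, Masp1, F2 and Kng1) and for 2 that were lower (C1ra and Mbl1), against 10.2% and 9.8% of all genes. For the interaction of zinc and Dex, 0 of 42 members passed as positive and 0 as negative (DESeq2), against 0.00764% and 0.0153% of 26185 genes, with 1 member at an unadjusted p under 0.05 (F3), against 1.99% of all genes. For it edgeR passed 0 members and 0.0228% of all genes. The interval of the zinc effect lay within 0.5 on the log2 scale of no change for 35 of 41 members.

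C2, whose 3 lowest values were those of the water-Dex mice, is an example of those that did not pass. It had 241, 228 and 231 normalized counts with Dex in plain water, and with Dex on zinc 267, 269.9 and 325. All zinc-Dex mice were higher, and the log2 fold change of 0.31 ± 0.12 had an adjusted p of 0.289 (DESeq2).

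**Figure D4:**
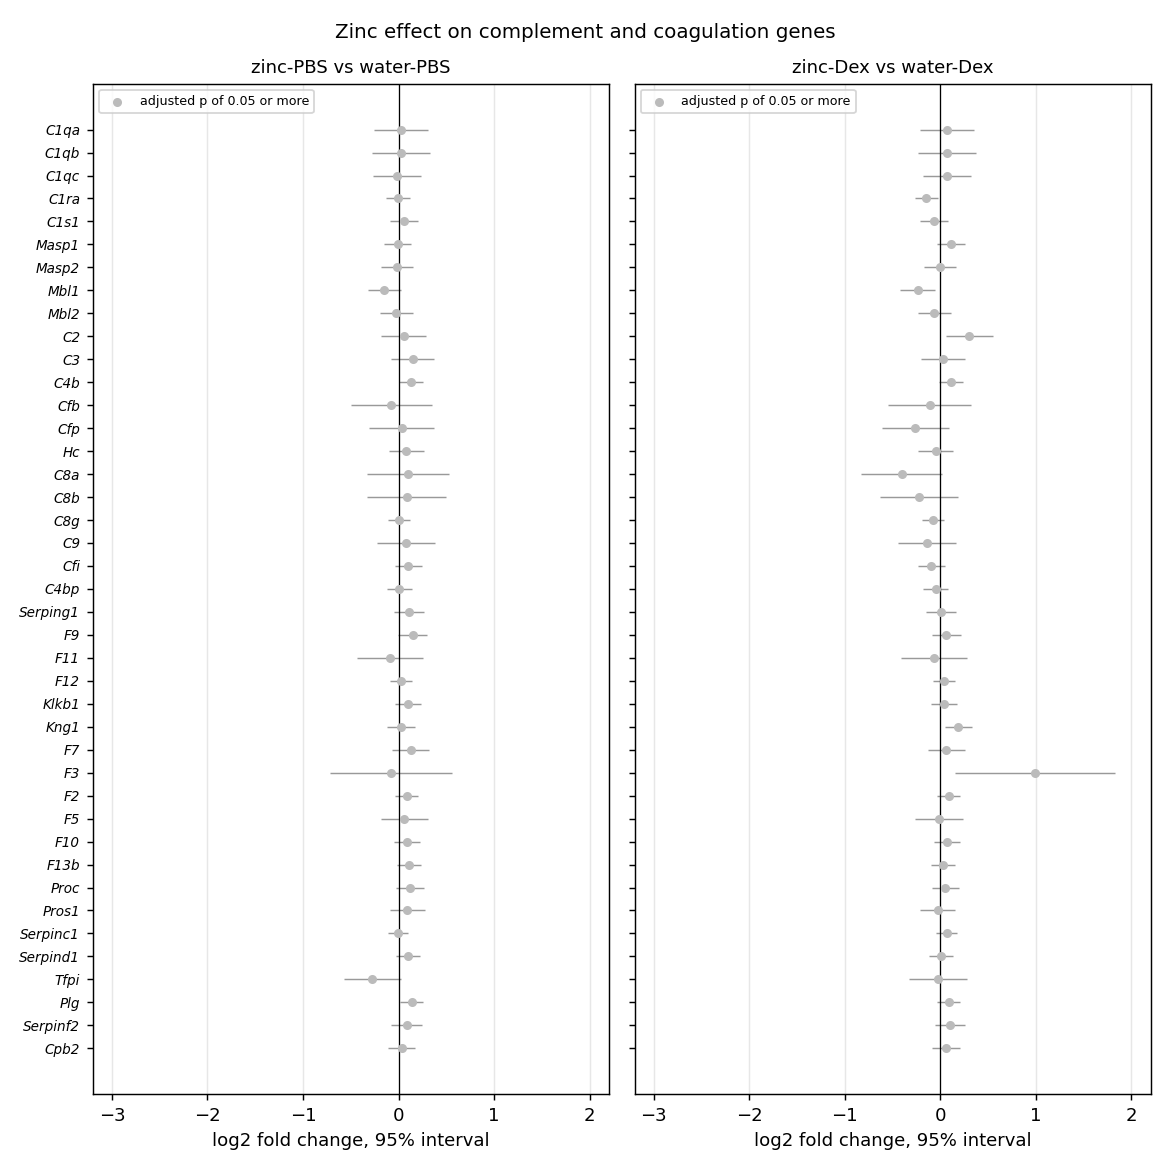
Log2 fold change of zinc over plain water with its 95% interval for 41 members, ordered by role, in PBS-injected mice (left) and in Dex-injected mice (right), from DESeq2 with n = 3 mice a group. No point passed at an adjusted p under 0.05; F3 in Dex-injected mice (0.99) has the largest estimate and the widest interval.

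After F3, and with Cfd left aside, C8a and C8b of the terminal pathway varied most within a group. In zinc-Dex, replicate 2 differed from replicates 1 and 3 in these genes and in C9 and F11. These genes were chosen after their values were seen. C8a and C8b, which code for the α and β chains of C8 and lie side by side on chromosome 4, had 1830.2 and 1359 normalized counts in zinc-Dex replicate 1, 3762 and 2540.4 in replicate 2, and 1915 and 1458 in replicate 3. C9, whose product forms the wall of the pore, had 2147, 3597 and 2466, and F11 had 761, 1220 and 743. In each of the 4 genes replicate 2 stood above the other 2. Over the other groups C8a lay between 2731 and 3847 and C8b between 1477 and 2374. There C9 lay between 2727 and 3587 and F11 between 649 and 1074. Replicates 1 and 3 were below these ranges for C8a, C8b and C9 and inside for F11. Replicate 2 was inside the range for C8a and above it for C8b, C9 and F11. C8g, which codes for the γ chain of C8 and lies elsewhere, did not share this, with 2808, 2906 and 2894. Hc, which codes for C5, had 7817, 9685 and 8475.

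With all 3 mice, C8a was not called in zinc-Dex, with log2 fold changes of -0.33 against water-PBS, -0.43 against zinc-PBS and -0.41 against water-Dex. Without zinc-Dex replicate 2 they were -0.75, -0.85 and -0.82, with adjusted p of 1.9e-06, 5.3e-08 and 3.7e-06 (DESeq2), and the interaction was -0.92 with an adjusted p of 0.00165. The same omission gave calls for C9 of -0.43, -0.50 and -0.38 (adjusted p = 0.000923, 7.3e-05 and 0.0259) and, against water-Dex, for C8b of -0.57 (adjusted p = 0.0362) and Mbl1 of -0.32 (adjusted p = 0.0329). The 2 remaining mice are a smaller group than the design had. The genes and the omission shown were picked after the values were seen. The adjusted p without replicate 2 therefore cannot serve as evidence of a change. Replicate 2 was the highest of the 3 zinc-Dex mice in 28 of 41 members, replicate 1 in 3 and replicate 3 in 10, while over all genes replicate 2 was highest in 33.7%. Its hepatocyte gene sum was 1784000, the highest of the 12 libraries, and the part of that in these levels was not tested.

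**Figure D5:**
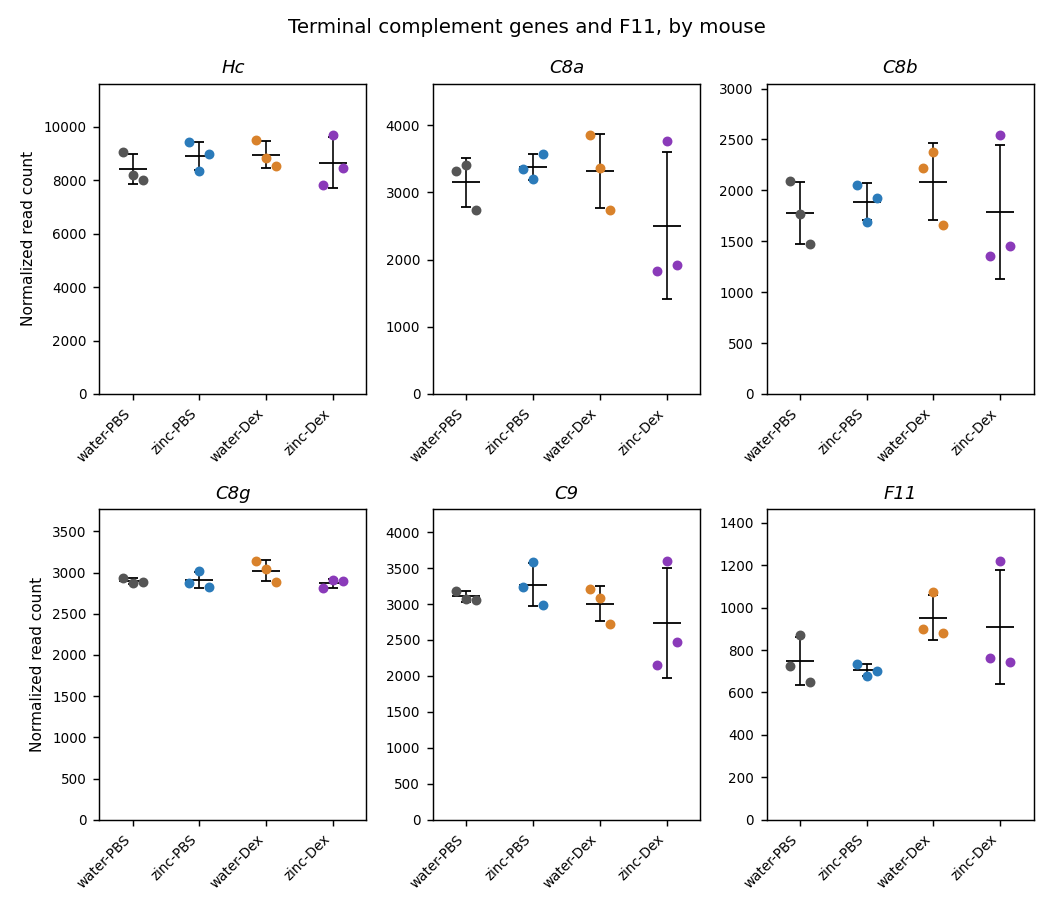
Normalized read count in each of the 12 mice for 5 genes of the terminal complement pathway and for F11, with the mean and SD of each group of 3; every axis starts at 0. In zinc-Dex, replicate 2 (middle point) is at 3762 for C8a with the other two at 1830.2 and 1915, and C8g shows no such gap.

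A list of 56 further genes of the same pathways was read alongside, all of them in the table. None passed for zinc in PBS-injected mice, where 43 had an adjusted p and 0 passed in either direction (DESeq2). For Dex 7 were higher and 4 lower of 52 in plain water, 5 and 3 of 53 in mice on zinc, and 6 and 4 of 54 for zinc-Dex against the control. The shares of all genes that passed as higher and as lower were 11.7% and 9.91%, 11% and 9.08%, and 8.13% and 6.7% in the same order, so the counts of the list lie near them. For zinc in Dex-injected mice 1 of 47 was higher (Hrg, the histidine-rich glycoprotein that binds zinc and plasminogen, with a log2 fold change of 0.30 and an adjusted p of 0.038). The call on Hrg was lost in 10 of 14 alternatives (adjusted p up to 0.325), among them edgeR, total-count scaling and leaving out any water-Dex mouse or zinc-Dex replicates 1 or 3.

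Thbd codes for thrombomodulin, the endothelial receptor that turns thrombin toward activating protein C. It had 109, 118 and 72.5 normalized counts in water-PBS, 128, 69.9 and 112 in zinc-PBS, 442, 613 and 579.8 in water-Dex. It had 358, 569.8 and 526 in zinc-Dex. All Dex mice were above all PBS mice. The log2 fold change was 2.44 ± 0.24 in plain water (adjusted p = 6.1e-23, DESeq2) and 2.23 ± 0.24 on zinc (adjusted p = 1.9e-19), and it passed in all 14 alternative settings of each. Thrombomodulin is a receptor of the endothelium, and of the 7 sinusoidal endothelial markers 1 was higher and 2 were lower in each of these comparisons. Of all genes 11.7% and 9.91% passed as higher and lower in plain water, and 11% and 9.08% on zinc. The markers moved in both directions. Lyve1 had a mean of 160 normalized counts in water-PBS and 927 in water-Dex, and Kdr 892 and 405.

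Serpina5, the protein C inhibitor, had at most 1 count in the PBS-injected mice, 8 to 38 counts in water-Dex and 12 to 20 in zinc-Dex. Against a floor of 3 counts per library, the mean of the Dex group was at least 6.84-fold higher in plain water. On zinc that mean was at least 6.65-fold higher. These folds are of group means and do not hold for every mouse. F2r, a receptor that thrombin cleaves, rose by 0.52 in plain water (adjusted p = 0.00165, DESeq2) and by 0.77 on zinc (adjusted p = 3.6e-07), though the first was lost with total-count scaling. Of the 3 fibrinogen genes, Fga and Fgb rose in plain water by 0.34 each (adjusted p = 0.0274 and 0.0251), calls that were lost in 7 and 5 of 14 alternatives. Fgg did not pass.

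On the side of the genes that fell, C3ar1, the receptor of the C3a fragment on myeloid cells, had 60.9, 48.2 and 64.8 normalized counts in water-PBS and 28.4, 12.8 and 15.8 in water-Dex. In mice on zinc it had 57.8, 49.8 and 56.1 with PBS and 15.2, 14.4 and 12.5 with Dex. All Dex mice were lower, by -1.60 in plain water (adjusted p = 3.4e-06, DESeq2) and -1.96 on zinc (adjusted p = 6.2e-08), in all 14 alternatives. C5ar2, a receptor of C5a, fell by 1.11 on the log2 scale in plain water (adjusted p = 0.0244), a call that was lost on leaving out any 1 of the 6 mice (adjusted p up to 0.106). On zinc it moved by -0.79 and did not pass. Serpina10, the protein Z-dependent inhibitor of factor X, had 2241, 2253 and 2212 normalized counts in water-PBS and 1884, 1854 and 1803 in water-Dex. It was lower in every water-Dex mouse, by -0.28 (adjusted p = 0.00305), and in mice on zinc by -0.42 (adjusted p = 7.1e-07).

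Some members share sequence with a relative or overlap exons of a neighbour. C4b has the near copy C4a, C1ra has C1rb, C1s1 has C1s2 and Kng1 has Kng2, and reads that matched more than 1 place had been left out, so their levels are uncertain. C2 and Cfb share exons with the readthrough gene Gm20547, which had 0 counts, and Klkb1 with Gm45753, which had at most 1. How reads on exons of more than 1 gene were counted is not stated. The levels of C2, Cfb and Klkb1 may therefore be too low. Masp2 overlaps exons of Tardbp on the opposite strand, which had 514 to 792 counts per library, and whether the counting used strand was not stated.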

How the data were processed

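Stranded TruSeq libraries of total RNA from 12 livers had been read from a single end. The authors mapped reads to mm10 with HISAT2 2.0.4 and counted them per gene with featureCounts, leaving out multimapping reads, and the deposited table holds raw read counts with no normalization. The annotation release and strand setting are not given in the sources used here. The notes also name Trimmomatic, SAMtools and DESeq2.

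Columns were assigned to groups from the labels (0 columns left out). Symbols, coordinates and exon lengths for TPM came from GENCODE M21 (54723 of 54838 identifiers), and promoter sequences from RefSeq (GRCm38.p6). Total counts were 9091152 to 12303527 per library. DESeq2 1.42.0 (R 4.3.3) was fitted to all 12 libraries with 1 coefficient per group, with size factors, unshrunken fold changes, Wald tests, default independent filtering and Cook's distance. Calls used a Benjamini-Hochberg adjusted p under 0.05 over all genes tested, following the study's FDR of 5%, and calls past an absolute log2 fold change of 0.8 were counted beside them. Normalized counts are counts divided by size factors. The fit was tested on simulated data.

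Alternatives were edgeR 4.0.16 (quasi-likelihood, TMM), TMM factors, a low-count filter (10 counts or more in 3 or more libraries, 13255 genes), a replicate block, only the 6 libraries compared, no independent filtering, no Cook's distance filter, the fold threshold, and leaving out each library. Total-count scaling was added after seeing the data. The rule for named genes gave values per mouse for the members that passed and ranges and counts for others. The values per mouse of other members, and of genes outside the members, are examples chosen after their values were seen. The rule for the members uses symbols only, but the members and lists were chosen with earlier results of these data known. The labels do not say that mice of a group were housed or processed separately. The DESeq2 p-values therefore set each difference only against the variation between these mice. That variation was estimated per gene over all 12 libraries and drawn toward that of genes of similar level.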

Additional observations from a re-analysis of the deposited data

How the results depend on the processing

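The counts of members that passed were small, so 1 gene could change them. For the replicate block, the fits of 6 libraries, no independent filtering and the omissions of 1 library, shares of all genes are not given. Member counts under those settings therefore show only how far the calls depend on the setting. Requiring also an absolute log2 fold change above 0.8 left 0 higher and 1 lower (F3) in each of the 3 comparisons of Dex with a PBS group. Replicates with the same number did not deviate together (r between -0.15 and 0.0547 over 18 pairs, 0 above 0.1). No shared effect of the number was seen, which cannot settle whether the numbers pair the mice. With the replicate block, 1 member was lower for Dex in plain water, 1 higher for zinc-Dex against water-PBS, and 0 higher and 1 lower for Dex in mice on zinc. Fitting only the 6 libraries compared gave 1 lower, 0 higher, and 0 higher with 1 lower in the same order, and no independent filtering gave 1 lower for mice on zinc. Total-count scaling gave 0 higher and 17, 18 and 22 lower for plain water, zinc-Dex against water-PBS and mice on zinc. Of all genes 7.07%, 7.03% and 6.43% passed as higher under it, and 23.1%, 28.8% and 25.1% as lower. That scaling turned Masp1 to -0.0312 and -0.00741 (adjusted p = 0.777 and 0.951, DESeq2) for the last 2 comparisons. Leaving out 1 library gave 0 to 1 higher and 1 to 2 lower in plain water, 0 to 2 higher and 2 to 4 lower for zinc-Dex against water-PBS, 0 to 1 higher and 0 to 6 lower in mice on zinc, 0 to 4 lower for zinc-Dex against water-Dex and 0 to 1 negative interactions. The highest of these lower counts came without zinc-Dex replicate 2 (C8a, C8b, C9, Klkb1 and Mbl1 among them), and 0 in mice on zinc came without zinc-PBS replicate 3. Each omission also left fewer mice, and the cause of these changes in the counts was not tested. The 0 members called for zinc in PBS-injected mice stayed 0 in every setting run.

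F3 rests on 5 to 60 normalized counts per library, so its fold is the least precise here, and for Cfd, at 0 or 1 count, a change was not detectable at this depth.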
